A study of Mus musculus with 20 samples.

Results

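Tetrahydrobiopterin (BH4) is made and kept reduced by the products of Gch1, Gchfr, Pts, Spr, Qdpr, Pcbd1 and Pcbd2, and these 7 genes, chosen by their place in the pathway, are 7 of the 18054 gene rows in the count table. They were followed in ribosome footprints and in input RNA from mouse hippocampus. A ribosome footprint is the piece of mRNA that a translating ribosome shields from nuclease, and input RNA was taken from each lysate as a measure of how much mRNA was there. The groups were Qtrt1-/- females (KO, 3 animals), wild-type females (WT, 3), Qtrt1-/- males (2) and wild-type males (2), with 1 footprint and 1 input library per animal. KO females were aged 6 months and 21 days and WT females 6 months and 21 or 22 days. In each male genotype 1 animal was aged 6 months and 18 days and the other 5 months and 16 days, so the sexes also differed in age. Qtrt1 is the catalytic part of the transglycosylase that exchanges a guanine of certain tRNAs for queuine, which makes the nucleoside queuosine. The labels give the genotype alone: the sources used here do not say how the allele was made or in which cells Qtrt1 is lost.

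BH4 is the cofactor of the aromatic amino acid hydroxylases, of the nitric oxide synthases and of alkylglycerol monooxygenase. In the brain it is best known for limiting the synthesis of dopamine, noradrenaline and serotonin. It is made from GTP by Gch1, Pts and Spr, and once a hydroxylase has used it, it is returned to the reduced form by Pcbd1 or Pcbd2 and then Qdpr. Queuosine sits in the anticodons of the tRNAs for tyrosine, histidine, asparagine and aspartate, which read the codons ending AC or AT. Earlier work in queuine-deficient mice and human cells tied the lack of queuosine to more oxidized BH4 and to poorer conversion of phenylalanine to tyrosine. Whether the genes of the pathway differ between Qtrt1-/- and wild-type hippocampus is the question that these rows address.

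Footprint libraries held 5357812 to 15517982 counts and input libraries 9000662 to 13637370. Qtrt1 itself had 1 to 10 footprint counts in the 5 KO libraries, against 28 to 94 in the 5 WT libraries, and the genotype groups did not overlap in either sex. Markers of hippocampal neurons were present throughout, with all 10 genes of the list tested. Some libraries stood apart in tissue that borders the hippocampus. The summed level of 9 choroid plexus markers in footprints ran from 2222 to 9343 CPM (counts scaled by library size) in KO females, against 151 to 5975 CPM in WT females, and striatal markers ran from 208 to 625 CPM in KO females, against 468 to 1206 CPM in WT females. KO female 1 also carried liver transcripts, which are foreign to brain: 11 liver markers, a list made after the values were seen, summed to 282 CPM in its footprints, with 1596 counts of albumin (Alb), against 2.48 to 60.6 CPM in the other 9 footprint libraries. In input RNA the same markers summed to 132 CPM in KO female 1, against 2.39 to 26.2 CPM in the other 9. The Gch1 footprint difference in females, which rests most on KO female 1, is given with and without it. The female values of the other BH4 genes include it unless leaving out an animal is named.

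The pathway was uneven in level. Per kilobase of coding sequence, Qdpr had the highest footprint level, with a median of 179 CPM (range 135 to 227 over the 10 libraries), followed by Spr with 112 CPM (96.2 to 194). Those ranges overlapped, though within each library Qdpr lay above Spr, and both genes lay far above the others. Pcbd2 had a median of 27.9 CPM per kilobase (19.4 to 44.4), Pts 12.7 CPM (8.79 to 17.5) and Pcbd1 11.2 CPM (4.55 to 17.7), with Pts and Pcbd1 not separated from each other. Gchfr had a median of 2.23 CPM per kilobase (0 to 3.27) and Gch1, the first enzyme of the pathway, 0.821 CPM (0.213 to 2.31), and these ranges overlapped as well. The value of Pcbd2 uses the principal coding sequence of 103 codons and would be lower with the alternative of 136 codons.

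Footprint density relative to RNA followed a similar split. The ratio of footprint CPM to input CPM in the same animal had a median of 3.23 for Qdpr (2.60 to 3.54), which was above 97.6% of 13050 genes. For Spr the median ratio was 2.07 (1.5 to 3.18), above 90.6% of those genes. A ratio of 1 means equal shares of both libraries, so Qdpr and Spr held a larger share of footprints than of RNA. They were also the members with the highest footprint levels, but footprint counts enter both the level and the ratio. The ratio was not scaled for the length of coding or untranslated sequence, which can also affect its rank among genes. The ratio was 0.929 for Pcbd1 (above 52.6% of genes), 0.743 for Pcbd2 (39.7%), 0.675 for Pts (35.2%) and 0.522 for Gch1 (23.4%), whose few counts spread it from 0.177 to 3.50. The plot of ratios shows each animal.

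**Figure D1:**
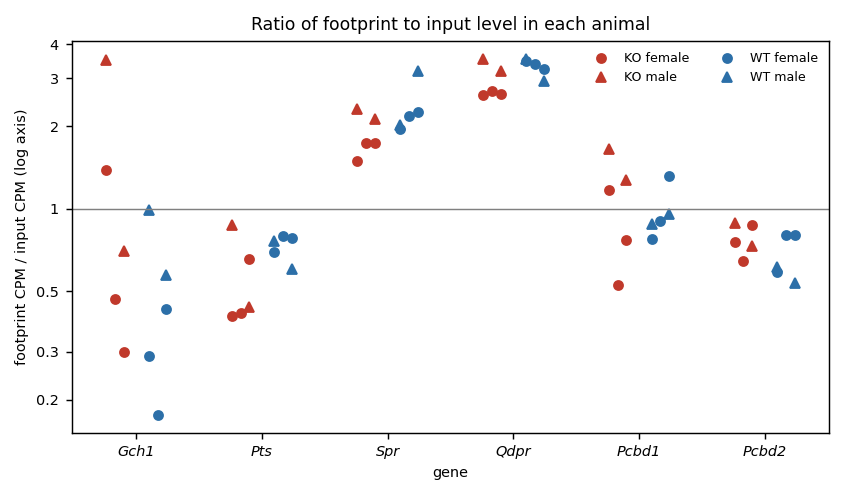
Ratio of footprint CPM to input CPM (log axis) in each animal for the 6 BH4 genes that passed the count filter, with KO left of WT and females as circles, males as triangles. Qdpr lies between 2.60 and 3.54 in all 10 animals, and the 3 KO females lie below the 3 WT females for Qdpr, Spr and Pts, 3 of 6 genes, against 30.1% of all genes whose female groups do not overlap.

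The genes also differed in how often their coding sequences call for a queuosine tRNA. Pts was the richest, with 31 such codons of 144 (21.5%), a higher share than in 99.2% of the 17676 genes compared, whose median was 13.7%. Pcbd1 had 18 of 104 (17.3%, above 89.9% of genes), Gchfr 14 of 84 (16.7%, above 85.3%) and Pcbd2 15 of 103 (14.6%, above 62.1%). With the alternative Pcbd2 coding sequence the share was 15 of 136 (11%), under that median, so the place of Pcbd2 depends on the transcript chosen. Spr had 31 of 262 (11.8%), and Gch1 and Qdpr each had 27 of 241 (11.2%, above 20.2% of genes). Tyrosine codons alone made up 4.76% of Gchfr and 4.17% of Pts, but 1.24% of Qdpr and 0.962% of Pcbd1, against a median of 2.70% over all genes. To show what these shares look like, the run of 20 codons with the most queuosine codons is given for Pts (codons 32 to 51), for the paralogues Pcbd1 and Pcbd2 (codons 61 to 80 of each) and for Qdpr (codons 55 to 74), from the GENCODE M21 transcripts of GRCm38, on the coding strand, 5′ to 3′, with codons read by queuosine tRNAs in capitals:
Pts: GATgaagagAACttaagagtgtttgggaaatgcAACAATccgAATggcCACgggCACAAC
Pcbd1: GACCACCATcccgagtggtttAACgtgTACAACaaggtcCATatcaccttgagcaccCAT
Pcbd2: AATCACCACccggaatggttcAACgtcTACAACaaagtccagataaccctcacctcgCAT
Qdpr: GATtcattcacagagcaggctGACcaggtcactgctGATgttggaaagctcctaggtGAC
The windows of Pts and Pcbd1 held 8 queuosine codons each, that of Pcbd2 7 and that of Qdpr 4. Pcbd1 and Pcbd2 were alike in this stretch, with 45 of 60 bases identical and queuosine codons at 7 shared positions. The windows were picked for their density and carry no test.

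The first comparison asked whether genotype moved the footprints or the RNA of these genes, in females, in males and averaged over the sexes with equal weight. In edgeR's quasi-likelihood test, with Benjamini-Hochberg adjustment over all genes and a call at an adjusted p under 0.05, none of the 6 genes that passed the filter on low counts passed between KO and WT in any of these comparisons. Gchfr did not pass the filter. In such whole-tissue lysates fewer cells of a type and less RNA per cell cannot be told apart. The genes pointed in different ways: in footprints, averaged over the sexes, Gch1 and Pcbd2 were higher in KO and Pts, Spr, Qdpr and Pcbd1 lower, with a median log2 difference of −0.21, against 0.00 over all genes. Before adjustment 3 of 6 passed 0.05 in female footprints (25.6% of all genes did), 1 in male footprints (4.28%) and 3 with both sexes (19.6%). In input RNA 2 of 6 did so in females (20.1% of all genes), 2 in males (8.80%) and 1 with both sexes (17.6%). Over all genes the test called 7.06% in female footprints, 0% in male footprints and 0.00761% with both sexes, and 3.48%, 0% and 0.734% in input RNA of females, of males and of both sexes. Without KO female 1 the counts of called genes were 37 in female footprints, against 928 with it, 4 in female input RNA, against 493, and 4 in input RNA with both sexes, against 104. The last count was between 1 and 7 on leaving out any animal other than WT female 2 (699) or WT male 1 (574). Levels of KO and WT did not overlap for 3 of the 6 genes in female footprints, against 34.9% of all genes, and for 2 of 6 in male footprints, against 26.9%. In input RNA this held for 3 of 6 in females, against 25.2% of all genes, and for 2 of 6 in males, against 37.9%. DESeq2 called none of the 6 either, though it gave no adjusted p for some of them. The averages share their libraries with the single-sex comparisons. Tissue markers also leaned with genotype: averaged over the sexes in footprints, 10 of 10 markers of hippocampal neurons and 9 of 9 of choroid plexus were higher in KO and 10 of 10 of striatum lower, with medians of 0.38, 0.72 and −0.58 and none called. In female footprints the same lists had medians of 0.47, 1.54 and −1.33, with 1 neuronal and 1 choroid plexus marker called higher and 2 striatal markers called lower. Meningeal fibroblast markers were higher in KO females for 7 of 7 genes, 4 called in footprints (median 1.04) and 3 in input RNA (median 0.72), and their summed footprint level was 314 to 411 CPM in KO females, against 157 to 303 CPM in WT females, and 259 to 361 CPM in KO males, against 371 CPM in both WT males. Of the 12 oligodendrocyte markers 6 were higher and 6 lower in KO female footprints, with 1 called higher. In female input RNA 4 were higher and 8 lower, with none called. Of the 7 astrocyte markers 6 were higher and 1 lower in KO female footprints, with 2 called higher. In female input RNA 2 astrocyte markers were higher, 1 of them called, and 5 lower. Over both sexes in input RNA 1 was higher and 6 lower, with Gja1 called lower (−0.24 ± 0.05, adjusted p = 0.0489). The part of all these tissue markers in the values of the BH4 genes was not tested.

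**Figure D2:**
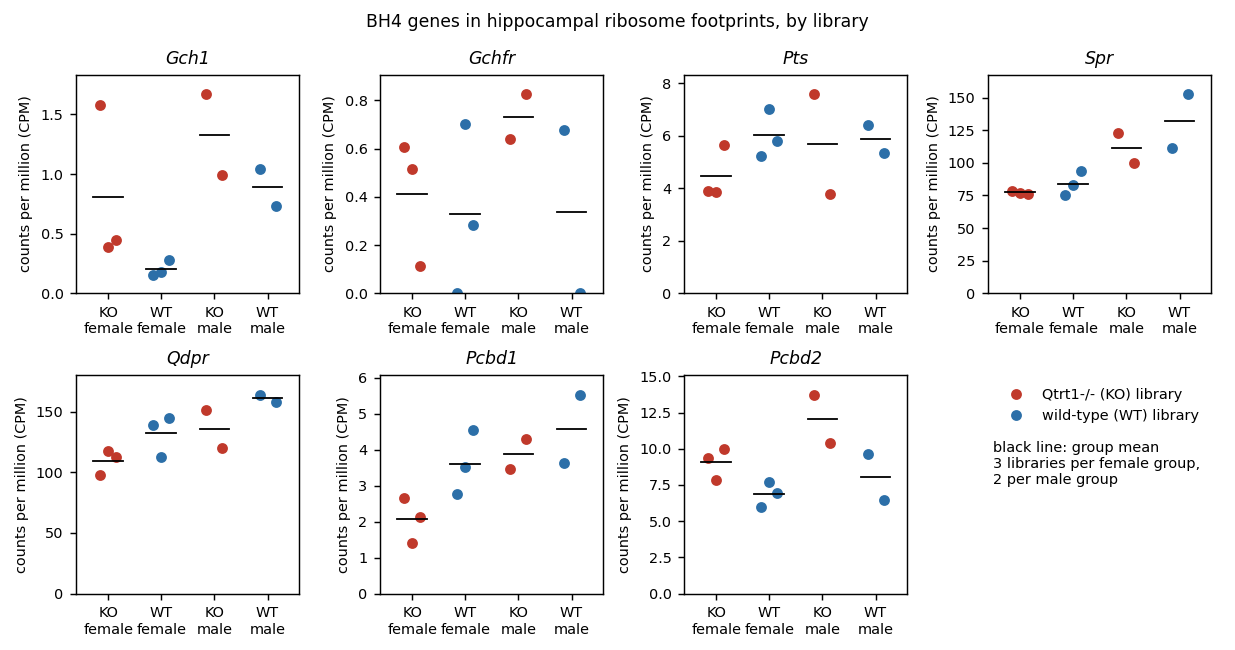
Footprint level in CPM (y axis, from 0, on a scale of its own for each gene) of the 7 BH4 genes in every library, with KO left of WT within each sex and group means as black lines. Pcbd2 is the 1 gene with every KO library above every WT library of its sex, and all 4 male libraries of Spr lie above the 6 female ones.

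**Figure D3:**
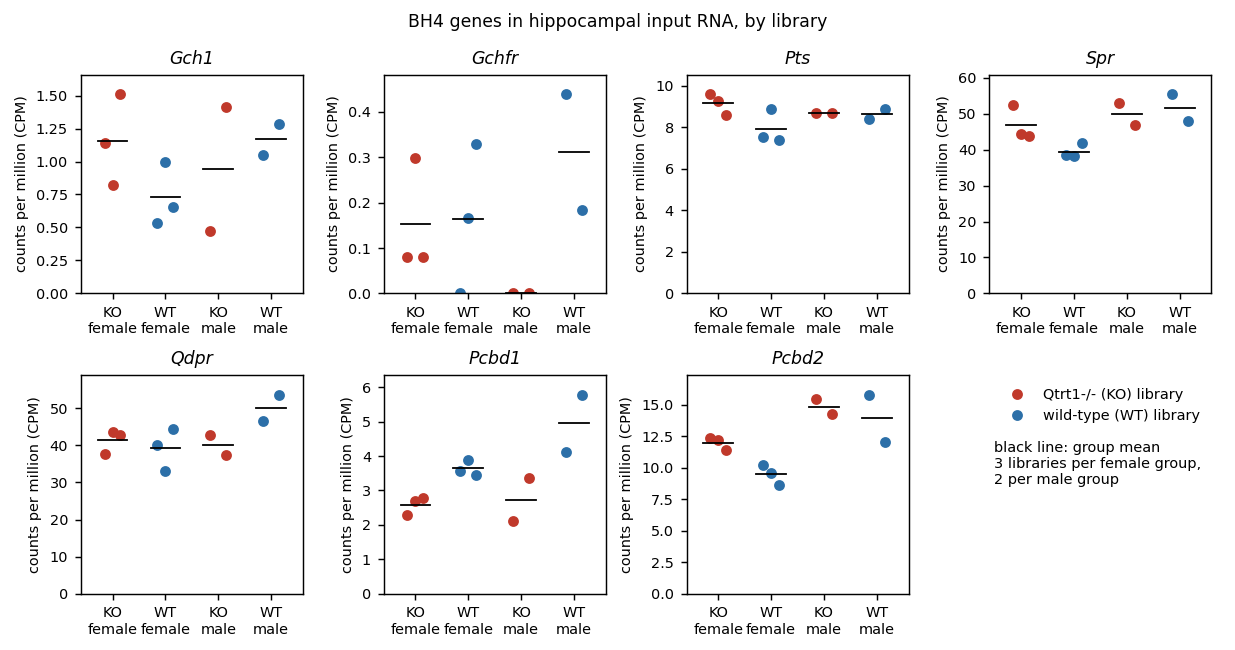
Input RNA level in CPM (y axis, from 0, on a scale of its own for each gene) of the 7 BH4 genes in every library, drawn as for footprints. Pcbd1 is the 1 gene with every KO library below every WT library of its sex.

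Gch1, GTP cyclohydrolase, which sets the rate of BH4 synthesis, was close to the limit of detection. Its footprint counts were 13, 3 and 4 in KO females, against 1, 1 and 2 in WT females. In males they were 13 and 6 in KO, against 17 and 4 in WT. The female groups did not overlap, but 13 of the 20 counts in KO females came from KO female 1, the library with liver transcripts, and the male groups overlapped. The female difference was 1.88 ± 0.78 on the log2 scale (standard error, adjusted p = 0.151). Without KO female 1 the gene no longer passed the filter, and with no filter the difference was 0.97 (adjusted p = 0.717). What part the liver transcripts have in the higher value was not tested. Gch1 input counts were 14, 11 and 19 in KO females, against 7, 12 and 8 in WT females, and 5 and 13 in KO males, against 12 and 14 in WT males, so both sexes overlapped. The difference over both sexes was 0.17 ± 0.36 (adjusted p = 0.859), and the interval of 2 standard errors, −0.56 to 0.90, leaves room for a change in either direction.

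Gchfr encodes the feedback regulator that lets BH4 inhibit and phenylalanine stimulate Gch1. It had 5, 4 and 1 footprint counts in KO females, against 0, 4 and 2 in WT females. In males it had 5 and 5 in KO, against 11 and 0 in WT. Both sexes overlapped, on a total of 37 footprint and 19 input counts over all libraries. The 0 of WT female 1 allows up to 0.462 CPM and that of WT male 2 up to 0.552 CPM (3 counts, counting error only), levels at which other libraries were detected. Input RNA was at 0 in both KO males, against 5 and 2 counts in WT males, and was 1, 4 and 1 in KO females, against 0, 2 and 4 in WT females. Fitted with no filter on low counts, the footprint difference was 0.35 ± 0.98 in females (adjusted p = 0.903) and 0.66 ± 0.97 in males (adjusted p = 0.997). For RNA the female difference was −0.05 ± 1.14 (adjusted p = 1), and the male one did not pass (adjusted p = 0.644), its size being undefined against libraries at 0. None of the tests of Gchfr for genotype passed, and their standard errors of this size leave large differences in either direction possible.

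Pts, pyruvoyl-tetrahydropterin synthase, takes the second step of synthesis and, as shown above, is the member richest in queuosine codons. Its footprint levels were 3.88, 3.87 and 5.63 CPM in KO females, against 5.23, 7.03 and 5.82 CPM in WT females. KO males had 7.57 and 3.8 CPM, against 6.40 and 5.34 CPM in WT males. KO female 3 lay within the WT range, and in males the KO pair enclosed the WT pair. The female difference was −0.42 ± 0.27 (adjusted p = 0.351) and the male one −0.05 ± 0.32 (adjusted p = 0.995). Pts RNA was steady, at 8.58 to 9.59 CPM in KO females, against 7.41 to 8.87 CPM in WT females, and at 8.67 and 8.70 CPM in KO males, against 8.42 and 8.90 CPM in WT males. The RNA difference over both sexes was 0.11 ± 0.10 (adjusted p = 0.636, interval −0.10 to 0.31).

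Spr, sepiapterin reductase, completes BH4. In females its footprints were tight, at 78.5, 77.3 and 76.3 CPM in KO, against 75.6, 82.9 and 93.9 CPM in WT. In males they were 123 and 100 CPM in KO, against 112 and 152 CPM in WT. Both sexes overlapped, and the difference over both was −0.18 ± 0.10 (adjusted p = 0.355). Spr RNA leaned the other way in females, at 52.5, 44.3 and 43.7 CPM in KO, against 38.5, 38.1 and 41.7 CPM in WT, with no overlap. That difference of 0.25 ± 0.09 did not pass (adjusted p = 0.165). Male RNA levels of 53.1 and 47.0 CPM in KO, against 55.4 and 48.0 CPM in WT, overlapped.

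Qdpr, dihydropteridine reductase, regenerates BH4 and had the highest median footprint level of the members. In input RNA its median was 42.8 CPM, against 45.6 CPM for Spr. Footprint levels were 97.7, 118 and 113 CPM in KO females, against 139, 112 and 145 CPM in WT females. KO males had 151 and 120 CPM, against 164 and 158 CPM in WT males. The males did not overlap, and in females WT female 2 lay among the KO animals. The difference was −0.27 ± 0.12 in females (adjusted p = 0.186) and −0.25 ± 0.15 in males (adjusted p = 0.963). Over both sexes it was −0.26 ± 0.10, a level 0.836 times that of WT, and did not pass (adjusted p = 0.170). Qdpr RNA was 37.6, 43.6 and 42.8 CPM in KO females, against 40.2, 33.2 and 44.4 CPM in WT females, and 42.7 and 37.5 CPM in KO males, against 46.5 and 53.7 CPM in WT males. The RNA groups overlapped in females, where the difference was 0.07 ± 0.11 (adjusted p = 0.769), and not in males, where it was −0.32 ± 0.14 (adjusted p = 0.551). The female minus male difference in RNA, 0.39 ± 0.18, did not pass either (adjusted p = 0.513), and 0% of all genes were called in this comparison in input RNA and 0% in footprints.

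Qdpr varied together with several markers of oligodendrocytes, the myelin-forming cells. After the mean of each sex was subtracted, the 3 genes whose footprint levels followed Qdpr most closely over the 10 libraries were Slain1 (Pearson r = 0.98), Csrp1 (0.96) and Plekhb1 (0.95) of 13066 genes compared, and in input RNA their r with Qdpr was 0.64, 0.81 and 0.88. Against the oligodendrocyte markers fixed for this tissue, r in footprints was 0.83 for Cnp, 0.79 for Cldn11, 0.74 for Mag and 0.73 for Mbp, and it was lowest for Mal, at −0.32. In input RNA it was 0.85 for Ugt8a, Ermn and Cnp, and 0.15 for Mobp at the lower end. These points share libraries, dissection and depth, genotype differences were left in them, and the values are descriptions. The 12 oligodendrocyte markers themselves summed to 3202 to 4311 CPM in footprints of KO females, against 3004 to 5164 CPM in WT females, and to 4455 to 5408 CPM in KO males, against 5184 to 5428 CPM in WT males. Over both sexes 2 of the 12 were higher in KO footprints and 10 lower, with a median of −0.10 and none called, and their part in the Qdpr difference was not tested.

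Pcbd1, the carbinolamine dehydratase that clears the first product of BH4 oxidation and also serves as a dimerization cofactor of hepatocyte nuclear factor, had less RNA in every KO animal than in any WT animal of its sex. Its RNA levels were 2.27, 2.70 and 2.78 CPM in KO females, against 3.58, 3.90 and 3.46 CPM in WT females. In males they were 2.10 and 3.37 CPM in KO, against 4.12 and 5.78 CPM in WT. It was the 1 member of 6 whose input groups did not overlap in either sex, a pattern met, in either direction, by 6.58% of all genes tested. The difference was −0.49 ± 0.23 in females (adjusted p = 0.260), −0.86 ± 0.29 in males (adjusted p = 0.507) and −0.68 ± 0.18 over both sexes, a level 0.625 times that of WT. The last value had an adjusted p of 0.0996, the lowest of any member in the genotype tests without a block, and did not pass. Leaving out 1 animal at a time gave −0.86 to −0.52 with adjusted p from 0.0495 to 0.377, and only without WT male 1 was the gene called. Pcbd1 footprints were 2.67, 1.42 and 2.14 CPM in KO females, against 2.77, 3.51 and 4.54 CPM in WT females, and 3.46 and 4.29 CPM in KO males, against 3.63 and 5.52 CPM in WT males. Footprints separated the genotypes in females, by −0.79 ± 0.32 (adjusted p = 0.142), and overlapped in males, where the difference was −0.19 ± 0.36 (adjusted p = 0.966). These levels rest on 11 to 63 counts per library.

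Pcbd2, the paralogue of Pcbd1 with the same dehydratase activity, differed in the opposite direction. Its footprint levels were 9.34, 7.87 and 10.0 CPM in KO females, against 6.00, 7.73 and 6.95 CPM in WT females. In males they were 13.7 and 10.4 CPM in KO, against 9.66 and 6.44 CPM in WT. Every KO library lay above every WT library of its sex, as in 6.90% of all genes tested in either direction, though by a narrow margin in females. The difference was 0.40 ± 0.21 in females (adjusted p = 0.246), 0.54 ± 0.24 in males (adjusted p = 0.963) and 0.47 ± 0.16 over both, a level 1.38 times that of WT, and did not pass (adjusted p = 0.135). Without WT male 1, the deepest footprint library, it was 0.66 and was called (adjusted p = 0.0321), while the other 9 omissions of an animal left it uncalled. Pcbd2 RNA was 12.3, 12.2 and 11.4 CPM in KO females, against 10.2, 9.61 and 8.64 CPM in WT females, without overlap and with a difference of 0.34 ± 0.13 (adjusted p = 0.170). KO males had 15.4 and 14.2 CPM of RNA, against 15.8 and 12 CPM in WT males, which overlapped. The annotated exons of Qdpr and Pcbd2 share bases with antisense genes, Gm42413 and 4930451E10Rik, that have no row in the count table, and since the use of strand in counting is unknown their reads cannot be told apart from those of the antisense genes.

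**Figure D4:**
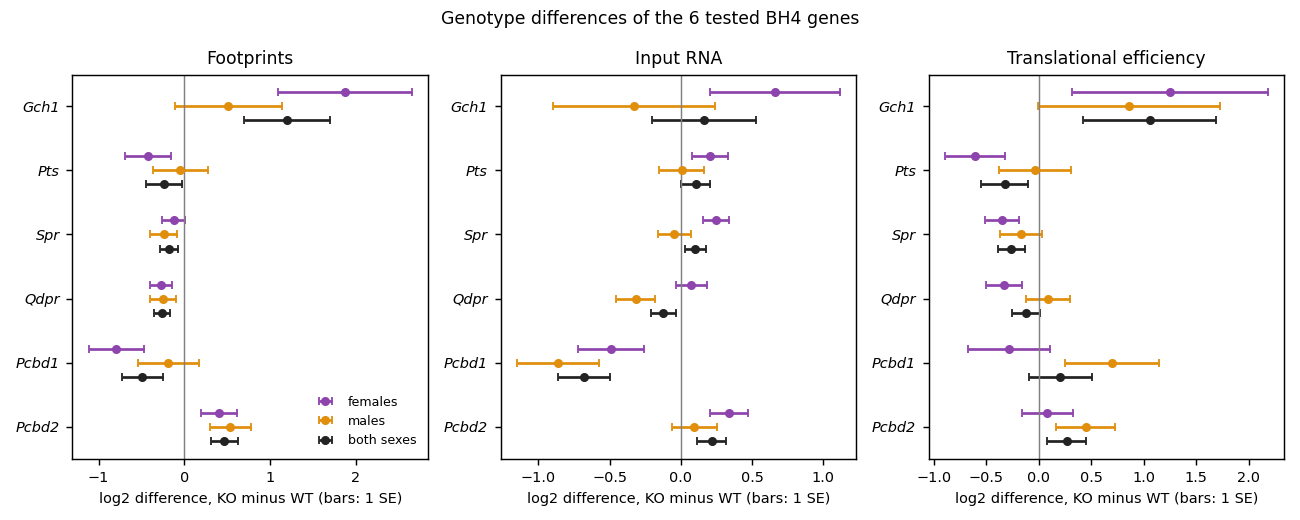
Log2 differences, KO minus WT, with 1 standard error, for the 6 tested BH4 genes in footprints, input RNA and translational efficiency, for each sex and for the average of both. Pcbd1 lies left of 0 in footprints and input RNA and Pcbd2 right of 0 in both, and no value passed the test after adjustment.

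The second comparison asked whether footprints relative to RNA differed by genotype, the translational efficiency, with the test on the assay-by-genotype term of 1 model of all 20 libraries. In females the synthesis enzymes Pts and Spr and the recycling enzyme Qdpr had fewer footprints per RNA in every KO animal than in any WT animal. These were 3 of 6 members, where the female groups did not overlap, in either direction, for 30.1% of 13012 genes. The ratio for Qdpr was 2.60, 2.70 and 2.63 in KO females, against 3.46, 3.39 and 3.26 in WT females. For Spr it was 1.5, 1.75 and 1.75 in KO females, against 1.96, 2.18 and 2.25 in WT females. For Pts it was 0.405, 0.417 and 0.656 in KO females, against 0.695, 0.792 and 0.785 in WT females. The same 3 ratios overlapped in males, at 3.54 and 3.20 in KO, against 3.52 and 2.94 in WT for Qdpr, 2.31 and 2.13 in KO, against 2.02 and 3.18 in WT for Spr, and 0.873 and 0.436 in KO, against 0.760 and 0.600 in WT for Pts. In males the groups did not overlap for Pcbd1 and Pcbd2, whose ratios were higher in KO, 2 of 6 members, against 26.8% of all genes. In the fit the female differences were −0.33 ± 0.17 for Qdpr (adjusted p = 0.434), −0.35 ± 0.16 for Spr (adjusted p = 0.376) and −0.61 ± 0.29 for Pts (adjusted p = 0.39), and none passed. Before adjustment, 2 of the 6 genes passed 0.05 in females, against 12.6% of all genes, and none did in males or over both sexes, against 2.59% and 10.3% of all genes. Over all genes 0.0424% were called in females, 0% in males and 0% with both sexes. With the animal as a replicate block, which pairs the footprint and input library of each animal, 394 genes were called in females, 1 in males and 114 with both sexes. No BH4 gene was among them, and the adjusted p in females was 0.0901 for Qdpr, 0.156 for Spr and 0.22 for Pts. DESeq2 called no BH4 gene in translational efficiency.

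The authors' tables of codon occupancy, which list footprints per codon of an mRNA, could not carry a test of queuosine codons within these genes. They listed no footprint on Qdpr, Pts or Pcbd2 and 1 on Spr, while the count table held 10708 footprint counts of Qdpr and 7752 of Spr. The sources used here do not say how mRNAs were chosen for these tables. For Pcbd1 they listed 76 footprints over the 10 libraries, at most 18 in 1 library, for Gch1 43 and for Gchfr 35. Of these footprints 4 on Pcbd1, 7 on Gch1, 8 on Gchfr and the 1 on Spr were listed at a queuosine codon. All 122 listed positions carried the codon that the GENCODE M21 coding sequence has there when codons are numbered from 0. A test of their share in KO and WT libraries, set to need 50 listed footprints of a gene in every library, was therefore not run.

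A further comparison, added after the values had been seen, set males against females, with both genotypes weighted equally. All 6 genes had higher footprint levels in males, and Spr, Qdpr and Gch1 were called. That is 3 of 6 against 29.9% of all genes called, so the members' share has to be read against a wide difference between the sexes, which also differed in age. Spr footprints rose to 100 to 152 CPM in the 4 males, against 75.6 to 93.9 CPM in the 6 females, by 0.58 ± 0.10 (adjusted p = 0.00121). Spr was the 1 member whose male and female libraries did not overlap in footprints, as for 17.5% of all genes. Qdpr footprints were higher by 0.30 ± 0.10 (adjusted p = 0.0335), with overlap, at 120 to 164 CPM in males, against 97.7 to 145 CPM in females. Gch1 footprints were higher by 1.42 ± 0.50 (adjusted p = 0.0458) on 4 to 17 counts in males, against 1 to 13 in females, and lost its call in each of the 9 omissions of an animal in which it could be tested. Without KO female 1 it did not pass the filter. Qdpr lost its call without KO male 1 (log2 difference 0.21, adjusted p = 0.188), WT male 1, WT male 2, WT female 2, KO female 1 or KO female 3, and Spr kept it in every omission, with adjusted p at most 0.0116. Of the oligodendrocyte markers 10 of 12 were higher in male footprints, 6 of them called, and 9 of 9 choroid plexus markers were higher in males, 3 called. Striatal markers were lower in males, 9 of 10 called. The part of these in the higher values was not tested.

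In input RNA all 6 genes were again higher in males, and Pcbd2 and Spr were called, 2 of 6 against 20.1% of all genes. Pcbd2 RNA was 12 to 15.8 CPM in males, against 8.64 to 12.3 CPM in females, a difference of 0.43 ± 0.10 (adjusted p = 0.0118). For Spr RNA the levels were 47.0 to 55.4 CPM in males, against 38.1 to 52.5 CPM in females, a difference of 0.24 ± 0.07 (adjusted p = 0.0359). No member's RNA separated all males from all females, which 11.8% of all genes did. Pcbd2 was not called without KO male 1 (adjusted p = 0.0581) or without WT male 1 (0.0638), and Spr was not called in 6 of the 10 omissions of 1 animal. Without KO male 1, and likewise without WT male 1, no member was called in RNA.

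**Figure D5:**
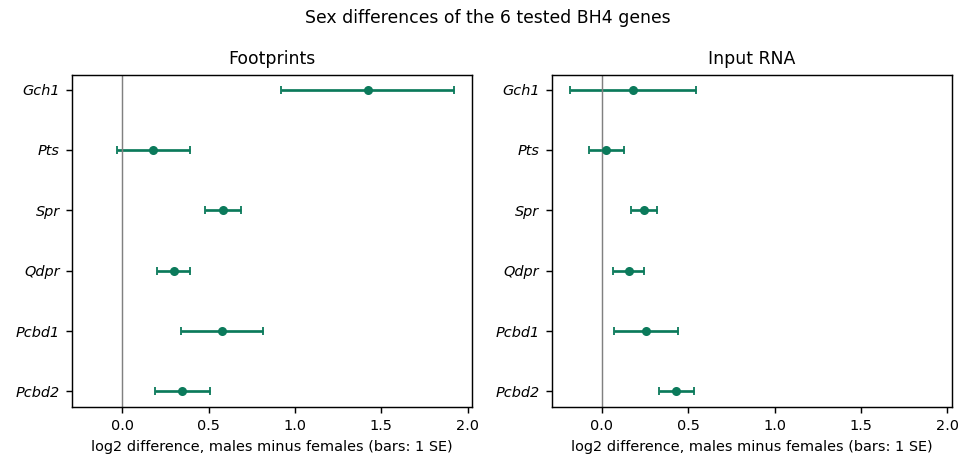
Log2 differences, males minus females, with 1 standard error, for the 6 tested BH4 genes in footprints and input RNA. All 12 values lie right of 0, and the calls were Gch1, Spr and Qdpr in footprints and Spr and Pcbd2 in input RNA.

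The enzymes that spend BH4 and the genes around them gave no call for genotype. Of 8 BH4-dependent enzymes 5 could be tested in footprints and 7 in input RNA, and none passed in females, in males or over both sexes, in either assay or in translational efficiency. Over both sexes their median log2 difference was 0.11 in footprints and 0.21 in RNA. Among the neuronal users of BH4, named after their values were seen, Th, tyrosine hydroxylase, was read at 9 to 55 footprint counts per library and Tph2, the neuronal tryptophan hydroxylase, at 4 to 32, while Nos1, the neuronal nitric oxide synthase, had 339 to 1746. None of 7 tested pterin and carbonyl reductases passed for genotype, and averaged over the sexes 3 were higher and 4 lower in KO footprints. None of 10 tested genes of phenylalanine and tyrosine transport and breakdown passed, with 5 higher and 5 lower in KO footprints. In input RNA 2 of them were higher and 8 lower (median −0.14). In translational efficiency 11 genes of this list were tested, with 9 higher and 2 lower, and none passed. The 9 include Hpd, at 1.47 ± 6731, whose few counts leave its direction undefined. None of 5 tested genes of monoamine handling passed, with 1 higher and 4 lower in footprints and again in input RNA. Between the sexes Nos1 (−0.64 ± 0.20, adjusted p = 0.0448) and Nos3 (−0.43 ± 0.13, adjusted p = 0.0354) were lower in male RNA. Slc7a8, an amino acid transporter, was lower in males in footprints (−0.38 ± 0.08, adjusted p = 0.00436) and in RNA (−0.23 ± 0.07, adjusted p = 0.0476). The monoamine oxidase Maoa was lower in male footprints (−0.34 ± 0.08, adjusted p = 0.00883). Dnajc12, a co-chaperone of the aromatic amino acid hydroxylases, was higher in male footprints (0.42 ± 0.15, adjusted p = 0.0445), and Slc18a2, the vesicular monoamine transporter, was higher in male RNA (1.17 ± 0.36, adjusted p = 0.0377).

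The members did not vary as 1 unit. The mean of each sex was removed, with genotype differences left in, and Pearson r was taken between pairs of members over the 10 footprint libraries. It ran from −0.55 for Gch1 with Qdpr to 0.66 for Gch1 with Pcbd2. For Pcbd1 with Pcbd2 r was −0.48 in footprints and −0.71 in input RNA. These values include the opposite KO minus WT differences of Pcbd1 and Pcbd2 given above. The genes most like the other members in footprints had r of 0.92 to 0.97, but their r in input RNA ranged from −0.79 to 0.76. For Pcbd1 these were Nup210 (0.97 in footprints and 0.24 in RNA), Metrnl (0.96 and 0.67) and Tfpt (0.93 and −0.54). For Pcbd2 they were Plcd4 (0.95 and 0.20), Sertad3 (0.95 and −0.79) and Snrnp48 (0.94 and 0.57). For Spr they were Plscr3 (0.94 and −0.10), Sirt5 (0.94 and 0.39) and Pepd (0.93 and 0.76). For Pts they were Fam81a (0.94 and −0.66), Trem2 (0.94 and 0.16) and Selenom (0.94 and 0.57), and for Gch1 Whamm (0.93 and −0.40), Cgnl1 (0.92 and 0.13) and St3gal4 (0.92 and 0.04).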

How the data were processed

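Libraries were grouped by the sex, genotype and assay in the labels. The deposited table holds the authors' raw whole-number counts per gene symbol, without normalization. The codon occupancy tables give counts of footprints per codon, per the file headers. The submitters' processing notes name SAMtools 0.1.19, Bowtie 1.2.2, Trimmomatic 0.39, Bowtie 1.0.0 and cutadapt 1.8.1. The sources used here do not give the genome build, the counting program, its use of strand or any collapsing of PCR copies. Limits from counts of 0 cover counting error only.

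All genes were fitted with edgeR 4.0.16 in R 4.3.3 (TMM, filterByExpr with a minimum count of 10, quasi-likelihood F test, Benjamini-Hochberg over 13143 genes in footprints, 14164 in input RNA and 14146 in translational efficiency). CPM use the TMM-scaled library size, and standard errors come from the F statistic. Footprint and input libraries of an animal are paired by the animal in the labels. Coding sequences and queuosine codons came from GENCODE M21, with 1 principal transcript per gene of at least 30 codons. No other gene of the count table shares exon bases with a member there. The main fits were tested on simulated data for the KO and WT comparisons in females, in males and over both sexes. The alternatives and the comparison of males and females were not. Alternatives were RLE scaling, DESeq2 1.42.0, no count filter, a replicate block, 1 sex alone and leaving out animals. All 7 members were named in the genotype comparisons of footprints and input RNA, list genes where called, and the 3 genes of highest r as like genes. In translational efficiency and between the sexes not every member was named. The members and lists were chosen with earlier results of these data known. Some single-gene values are not reported here.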

Additional observations from a re-analysis of the deposited data

How the results depend on the processing

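Single-gene values were followed over all alternatives, except those of sex by genotype and of male translational efficiency. Of these, 870 of 917 kept their direction and, where an adjusted p was given, their side of the threshold. Most were uncalled in the main fit, and staying uncalled with the same sign counted as kept, so this share says little about the calls. The 27 values that lost a call all came from the few calls between males and females. The number of BH4 genes called for genotype was 0 under RLE scaling, DESeq2, no count filter, 1 sex alone and the replicate block, and 0 to 1 on leaving out 1 animal, both for footprints and for input RNA over both sexes. In the added comparison of males and females it was 1 to 2 in footprints and 0 to 2 in input RNA on leaving out 1 animal, and 1 and 1 without both WT females of low choroid plexus level. In 17 uncalled values the sign turned, and the cause was not tested. On leaving out 1 animal, Pcbd1 in male footprints was −0.51 to 0.085 (highest without WT male 2) and Pts −0.64 to 0.34, with 0.13 without WT male 1 and 0.34 without KO male 2. Pts footprints for males minus females were −0.12 (without KO male 1) to 0.37. Male RNA was −1.28 to 0.27 for Gch1 (highest without KO male 1), −0.094 to 0.31 for Pcbd2 (lowest without WT male 2), −0.034 to 0.039 for Pts (lowest without WT male 1) and −0.15 to 0.062 for Spr, with 0.062 without WT male 1 and 0.036 without KO male 2. Gch1 RNA was −0.31 to 0.47 over both sexes and −0.29 to 0.48 for males minus females, both lowest without KO male 2. Qdpr RNA in females was −0.032 (without WT female 2) to 0.17, and Pcbd2 translational efficiency in females −0.060 (without WT female 1) to 0.19, with −0.023 without KO female 3. With males fitted alone Pts RNA was −0.000487. Without both WT females of low choroid plexus level, an alternative added after the data were seen, Qdpr RNA in females was −0.10 and Pcbd2 translational efficiency in females −0.062.

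The r of deviations from the group mean between same-numbered KO and WT animals was −0.21 to −0.12 in female footprints. Groups are small and their deviations are tied to each other, so such r cannot show whether the numbers pair animals. In males equal numbers mark equal ages, and r was −0.08 in footprints and 0.09 in input RNA. With the replicate block 308 genes were called in female footprints, against 928 without it, and 324 against 493 in female input RNA. Counts over all genes moved widely: in female footprints 1153 with DESeq2, 1382 with no filter, 1849 with females alone and 37 (without KO female 1) to 1545 on leaving out 1 animal; over both sexes 530 with DESeq2 and 534 with no filter, against 1, and 1 to 1453 on leaving out 1 animal, the highest without WT male 1. In input RNA leaving out 1 animal gave 4 (without KO female 1) to 1030 in females and 1 to 699 over both sexes. A lone animal left in a group was assumed to vary like the other groups. The test of queuosine codons within members, its alternatives and its paired form were not run, since no member had enough listed footprints. Depth limits Gch1, Gchfr and Pcbd1 most.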

Other observations

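Genes of tyrosine breakdown that were too low for the footprint tests were unevenly spread over libraries. Tat, tyrosine aminotransferase, had 22 footprint counts in KO female 1, Hpd 28 and Hgd 10, against at most 5, 6 and 2 in the other 9 footprint libraries. Hpd had 33 input counts in KO female 1 and at most 7 elsewhere. The liver markers were highest in the same animal in both assays, with 2325 footprint and 1631 input counts, and were next highest in WT female 3, with 427 and 318 counts, and WT female 2, with 204 and 228. The other 7 animals had 17 to 53 footprint counts of them. These genes were chosen after their values were seen, and why the animals differ was not tested.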
